A study of Homo sapiens with 27 samples.

Results

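Clade B serpins were described in MCF10A cells under every combination of 3 ligands. The set held 10 genes chosen by symbol: SERPINB1, SERPINB2, SERPINB3, SERPINB4, SERPINB5, SERPINB6, SERPINB7, SERPINB8, SERPINB9 and SERPINB13. Each matched 1 row of the table of estimated gene counts, which held 36536 distinct genes, and 9 of the 10 had enough counts to be tested among 15575 genes. The set was drawn up with results of these libraries in view, among them the rise of SERPINB4 with oncostatin M, so values for this ligand alone against PBS are given as a description and are not tested. SERPINB10, SERPINB11 and SERPINB12, which are not in the set, had at most 27, 4 and 11 counts in any library.

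MCF10A is an established line of human mammary epithelium that does not form tumours, and it was the single line used. All cells were expanded in DMEM/F12 with horse serum, 20 ng/ml epidermal growth factor (EGF), hydrocortisone, cholera toxin and insulin, were seeded on collagen-1, and spent 18 h in medium free of growth factors. Cells were then collected at once (T0, 0 h) or kept for 24 h with PBS, EGF, OSM (oncostatin M, a relative of interleukin-6), transforming growth factor beta (TGFB), EGF+OSM, EGF+TGFB, OSM+TGFB or EGF+OSM+TGFB, each ligand at 10 ng/ml. There were 27 libraries, 3 in each of these 9 groups. The labels do not say whether replicates came from separate cultures, so p-values may measure the spread between technical samples.

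Serpins are protease inhibitors that present a reactive centre loop as bait: an inhibitory serpin is cleaved in the loop and traps the protease in a covalent complex. Clade B members, also called ov-serpins, lack a classical signal peptide and are held mostly inside the cell, although several also leave it. Many are known from squamous and glandular epithelia and from leukocytes, where their targets include lysosomal cathepsins, granule serine proteases and the plasminogen activator urokinase. In the human genome they lie in clusters on the short arm of chromosome 6 and the long arm of chromosome 18.

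The libraries held 30.1 to 52.9 M counts (M, mega; median 39.5 M). Levels in CPM (counts per M counts, on scaled library sizes) are given per library or as mean ± SD (n = 3). A gene is said to have risen or fallen where the Benjamini-Hochberg adjusted p of edgeR's quasi-likelihood test was under 0.05, adjusted over all 15575 genes. Known targets of each pathway moved with their ligand. DUSP6, a phosphatase induced by ERK signalling, had 5.40 ± 0.379 CPM in PBS and 95.9 ± 6.54 CPM in EGF (edgeR adjusted p = 9.6e-14). SOCS3, a feedback inhibitor of STAT3, had 1.28 ± 0.250 CPM in EGF and 86.2 ± 4.14 CPM in EGF+OSM (edgeR adjusted p = 1.2e-18). SKIL, a SMAD target, had 37.3 ± 3.45 CPM in PBS and 104 ± 2.38 CPM in TGFB (edgeR adjusted p = 2.7e-14). These genes were not specific to a single ligand. TGFB against PBS also raised DUSP6 and SOCS3, and TGFB added to EGF lowered DUSP6. OSM added to EGF raised DUSP6 and lowered SKIL.

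The label of the MCF10A line was checked with 7 markers of mammary epithelium (KRT5, KRT14, KRT17, TP63, CDH1, CDH3 and EPCAM). Of these, CDH1 and EPCAM mark epithelium in general and not basal cells. They summed to between 8690 and 23539 CPM. The keratins KRT5, KRT17 and KRT14 had the highest means, 6147, 4982 and 1577 CPM. EPCAM was the lowest, at 2.72 to 18.6 CPM, and TP63 ranged from 84.3 to 199 CPM. Of the 4 leukocyte markers, PTPRC stayed at or under 0.225 CPM and CD14 ranged from 1.70 to 79.3 CPM. The leukocyte sum moved with the ligands: it was 55.4 to 79.7 CPM in OSM, 29.0 to 34.9 in PBS, 21.9 to 28.8 in EGF+OSM and 5.99 to 7.74 in EGF. With TGFB present it was 23.3 to 29.0 CPM in OSM+TGFB, 13.4 to 18.5 in TGFB, 4.45 to 6.86 in EGF+OSM+TGFB and 1.92 to 2.30 in EGF+TGFB. The 3 endothelial markers summed to at most 4.59 CPM. The 4 fibroblast markers summed to 13.03 to 213.8 CPM, almost all of it COL1A1 and DCN, with PDGFRA at or under 0.256 CPM. The part of these transcripts in the serpin differences was not tested. In bulk RNA, fewer cells making a transcript and less of it per cell cannot be told apart.

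The genes differed widely in level and in how far they moved (plot of CPM by library). Per kilobase of canonical transcript, which allows genes to be compared, SERPINB5 was the most abundant at a mean of 463.8 CPM per kb over all libraries. SERPINB3 followed at 107.5, SERPINB4 at 78.4, SERPINB6 at 72.3 and SERPINB1 at 35.9 CPM per kb. SERPINB8, SERPINB2, SERPINB13 and SERPINB7 lay at 19.4, 12.1, 5.64 and 2.07 CPM per kb. These means pool groups that differ widely. In PBS, SERPINB6 had 53.4 ± 3.51 CPM per kb, above SERPINB3 at 25.9 ± 3.497 and SERPINB4 at 1.69 ± 0.207. In OSM, SERPINB3 had 406 ± 48.6 CPM per kb, SERPINB5 349.7 ± 22.0 and SERPINB4 327 ± 59.8. The ratio of the highest to the lowest group mean was 713 for SERPINB4 and 137 for SERPINB3. It was 12 for SERPINB2, 11.9 for SERPINB13, 7.37 for SERPINB7, 3.43 for SERPINB1, 2.93 for SERPINB5, 2.41 for SERPINB8 and 1.85 for SERPINB6.

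**Figure D1:**
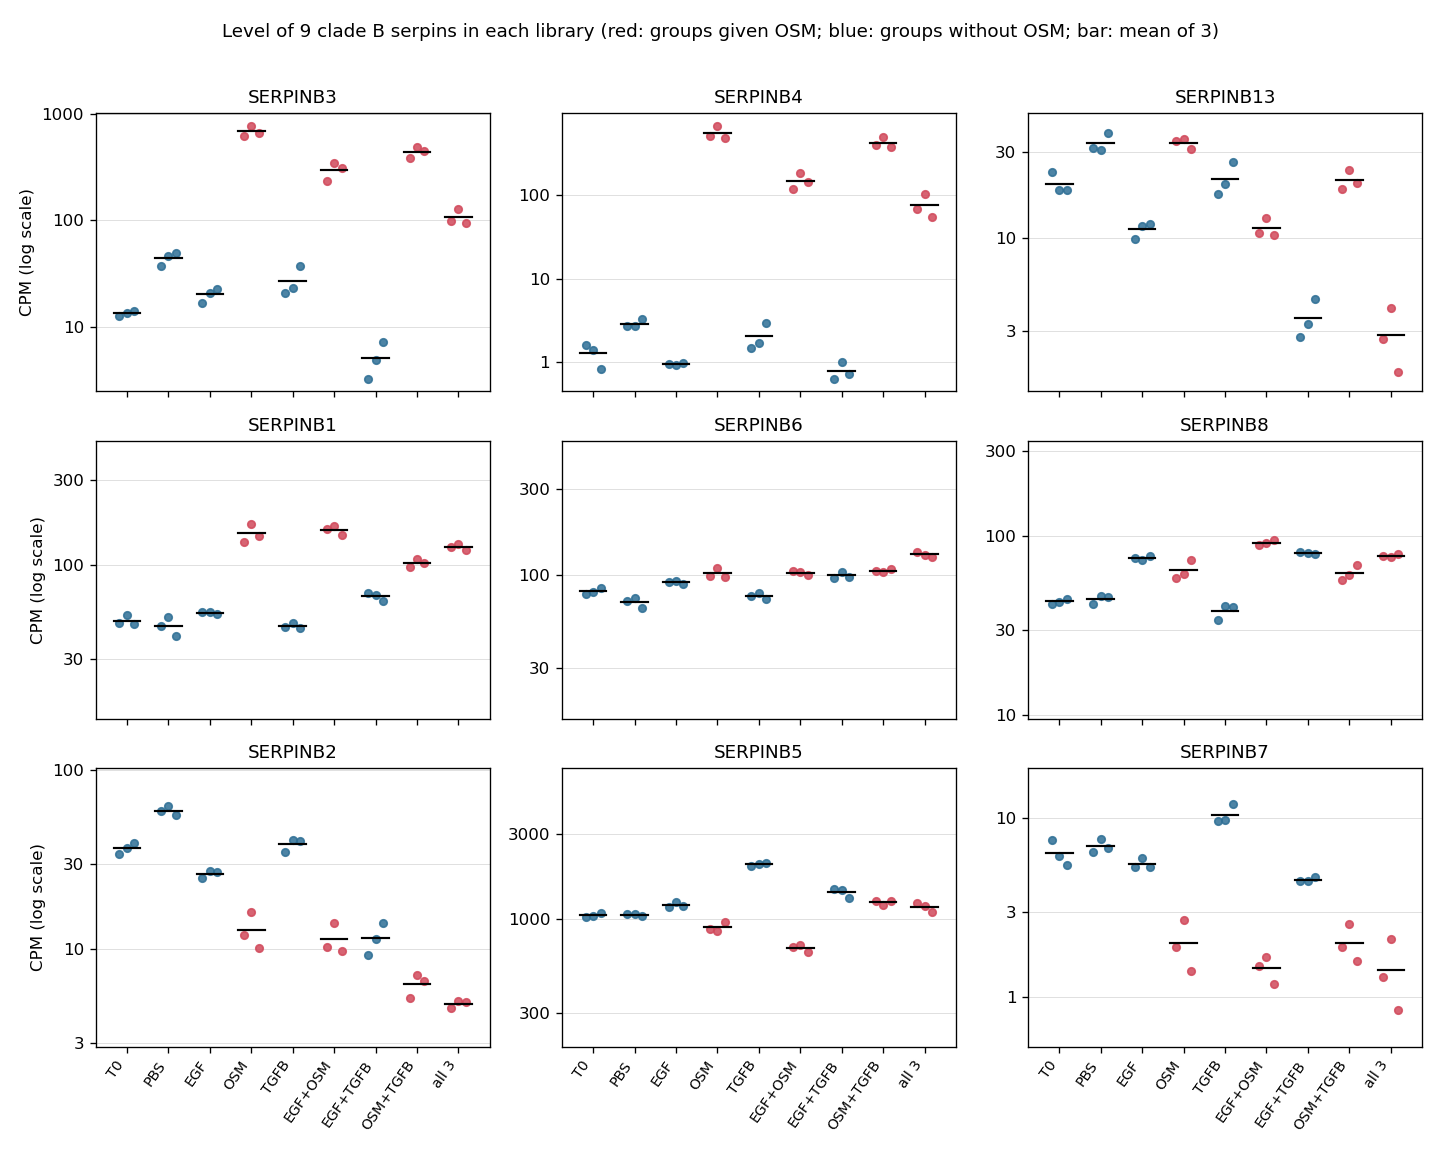
CPM of the 9 tested genes in every library, on a log axis, by group; points are libraries, bars are means of 3, red marks groups given OSM and blue the others. SERPINB4 sat between 0.632 and 3.30 CPM in every library without OSM and between 54.0 and 674 CPM in every library with it.

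SERPINB3 and SERPINB4, the squamous cell carcinoma antigens, are near-identical neighbours on the minus strand of chromosome 18 (GENCODE v44 on GRCh38). SERPINB3 (ENSG00000057149) spans chr18:63655197-63661893 and SERPINB4 (ENSG00000206073) chr18:63637259-63644256. The 250 bases before each start are shown because they are almost the same in both genes. Whether these windows bear on the response of either gene was not tested. They are written 5′ to 3′ on the gene's strand from RefSeq's GRCh38.p14 tables, with capitals marking the 3 mismatches, at chr18:63661894-63662143 for SERPINB3 and chr18:63644257-63644506 for SERPINB4:
SERPINB3: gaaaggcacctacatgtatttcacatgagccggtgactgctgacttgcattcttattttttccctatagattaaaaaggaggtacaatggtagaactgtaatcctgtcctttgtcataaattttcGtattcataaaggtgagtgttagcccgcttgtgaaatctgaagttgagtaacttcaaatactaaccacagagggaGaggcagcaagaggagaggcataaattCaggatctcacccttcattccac
SERPINB4: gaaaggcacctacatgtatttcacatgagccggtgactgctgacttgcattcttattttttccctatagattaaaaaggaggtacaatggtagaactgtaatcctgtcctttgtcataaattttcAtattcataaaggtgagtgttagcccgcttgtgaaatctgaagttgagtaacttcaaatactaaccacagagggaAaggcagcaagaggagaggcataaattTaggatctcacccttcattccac
These windows were identical at 247 of 250 bases, with 0 gaps. Neither held the STAT motif TTCNNNGAA, found in 6.57% of 35116 promoter windows of this length, nor the AP-1 motif TGANTCA, found in 6.57% of them, on either strand. The absence says only that these letters are not in the windows.

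The coding sequences differed more, with many of the mismatches toward the 3′ end, where serpins encode the reactive centre loop. Over 1170 coding bases, stop codon excluded, the pair had 56 mismatches (95.2% identity), and the longest identical run was 129 bases. The stretch from base 950 to base 1069, counted from the first coding base, lies in exon 8 of 8 and held 18 of the mismatches in 120 bases. It is shown, with mismatches in capitals, because differences like these let reads be assigned to one gene or the other. On GRCh38 it lies on the minus strand at chr18:63655761-63655880 in SERPINB3 and chr18:63637823-63637942 in SERPINB4:
SERPINB3: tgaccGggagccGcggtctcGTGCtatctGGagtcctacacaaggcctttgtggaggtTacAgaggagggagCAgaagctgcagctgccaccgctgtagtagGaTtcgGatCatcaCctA
SERPINB4: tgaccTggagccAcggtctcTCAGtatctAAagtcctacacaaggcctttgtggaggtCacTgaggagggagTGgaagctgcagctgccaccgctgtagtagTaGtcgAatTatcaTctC
Of the 1677 words of 31 bases in each canonical transcript, 690 (41.1%) were shared by the pair. Other pairs of the 10 genes shared 0. Reads from the shared stretches could be split between SERPINB3 and SERPINB4 by the counting tool, so the split between them is uncertain. SERPINB11 overlaps SERPINB3 on the opposite strand, and whether counting used strand is not given in the sources used here. SERPINB11 had at most 4 counts.

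SERPINB3, known to inhibit papain-like cysteine proteases such as cathepsin L, was high wherever OSM was present. Its libraries had 37.5, 45.9 and 49.1 CPM in PBS and 621, 784 and 674 CPM in OSM, a 15.7-fold ratio of means given as description. In EGF they had 16.8, 20.9 and 22.6 CPM against 237, 347 and 311 CPM in EGF+OSM. In TGFB they had 20.9, 23.0 and 37.1 CPM against 391, 493 and 447 CPM in OSM+TGFB. With EGF+TGFB the level was lowest of all groups. It was 3.22, 4.82 and 7.09 CPM there against 99.1, 128 and 94.7 CPM in EGF+OSM+TGFB. The 12 libraries with OSM did not overlap the 15 without it. OSM added to EGF raised SERPINB3 14.9-fold (log2 change 3.89 ± 0.21 SE, edgeR adjusted p = 2.99e-11). Added to TGFB it raised the gene 16.4-fold (4.04 ± 0.21, edgeR adjusted p = 4.21e-12), and added to EGF+TGFB 21.2-fold (4.44 ± 0.26, edgeR adjusted p = 3.59e-11).

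EGF lowered SERPINB3 in each of the 4 settings in which it was added. The level was 2.20-fold lower in EGF than in PBS (log2 change -1.14 ± 0.21, edgeR adjusted p = 7.95e-05) and 2.32-fold lower in EGF+OSM than in OSM (-1.22 ± 0.20, edgeR adjusted p = 2.13e-05). With TGFB present the drop was larger, 5.35-fold from TGFB to EGF+TGFB (-2.44 ± 0.26, edgeR adjusted p = 4.48e-08). The EGF effect with TGFB was lower than that without by 1.31 on the log2 scale (-1.31 ± 0.34, edgeR adjusted p = 0.00613). From OSM+TGFB to EGF+OSM+TGFB the gene fell 4.14-fold (-2.05 ± 0.20, edgeR adjusted p = 7.17e-08). TGFB also lowered it, 3.98-fold when added to EGF (edgeR adjusted p = 1.51e-06), 2.78-fold when added to EGF+OSM (2.1e-06 by edgeR) and 1.56-fold when added to OSM (edgeR adjusted p = 0.0091). Against PBS, TGFB lowered it 1.64-fold (edgeR adjusted p = 0.0118). That call was lost without PBS replicate 3 (edgeR adjusted p = 0.0509), TGFB replicate 1 (0.0750) or TGFB replicate 2 (0.0635). The day in PBS itself raised SERPINB3 3.32-fold over T0 (edgeR adjusted p = 4.14e-06), whose libraries had 12.6, 13.4 and 13.9 CPM.

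SERPINB4, known to inhibit chymotrypsin-like serine proteases such as cathepsin G and mast cell chymase, went from at most 3.30 CPM without OSM to at least 54.0 CPM with it. Its libraries had 2.68, 2.70 and 3.30 CPM in PBS and 512, 674 and 486 CPM in OSM, a 193-fold ratio given as description. In EGF they had 0.957, 0.918 and 0.976 CPM against 118, 182 and 141 CPM in EGF+OSM. In TGFB they had 1.46, 1.68 and 2.98 CPM against 392, 487 and 372 CPM in OSM+TGFB. No library with OSM came near one without it. With EGF+TGFB it had 0.632, 0.993 and 0.720 CPM against 67.5, 103 and 54.0 CPM in EGF+OSM+TGFB, and in T0 it had 1.60, 1.42 and 0.840 CPM. OSM added to EGF raised SERPINB4 155-fold (log2 change 7.27 ± 0.40, edgeR adjusted p = 2.35e-13), added to TGFB 205-fold (7.69 ± 0.32, edgeR adjusted p = 9.04e-15) and added to EGF+TGFB 95.8-fold (6.53 ± 0.45, edgeR adjusted p = 4.56e-12). Libraries without OSM held 21 to 135 SERPINB4 counts, so these folds rest on few reads in their denominators.

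EGF lowered SERPINB4 as well. The level was 3.79-fold lower in EGF+OSM than in OSM (log2 change -1.92 ± 0.20, edgeR adjusted p = 7.32e-08) and 5.57-fold lower in EGF+OSM+TGFB than in OSM+TGFB (-2.48 ± 0.20, edgeR adjusted p = 6.4e-09). The former uses the OSM libraries, in which SERPINB4 was known to be high when the set was drawn up. Its p-value may therefore be too small. The latter uses no library of the OSM or PBS groups. Without OSM the drop was 3.04-fold from PBS (edgeR adjusted p = 0.00202) and 2.61-fold from TGFB (edgeR adjusted p = 0.023). The last call was lost without TGFB replicate 3 (edgeR adjusted p = 0.129), EGF+TGFB replicate 1 (0.0689) or EGF+TGFB replicate 3 (0.0638). TGFB lowered SERPINB4 1.96-fold when added to EGF+OSM (edgeR adjusted p = 0.00027). OSM and OSM+TGFB libraries overlapped, and TGFB added to OSM gave a log2 difference of -0.42 ± 0.19 (edgeR adjusted p = 0.0796). That difference was called without OSM+TGFB replicate 2 (edgeR adjusted p = 0.0477) or EGF+OSM+TGFB replicate 2 (0.0369), and with a replicate block (0.0121). PBS was 2.25-fold above T0 (edgeR adjusted p = 0.0273), a call lost without T0 replicate 2 (edgeR adjusted p = 0.0519), T0 replicate 3 (0.111) or PBS replicate 3 (0.0851) and with no filter on low counts (0.0504).

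The estimated balance between the paralogs shifted with OSM, though the split of shared reads between them is uncertain. SERPINB3 took 93.3%, 94.5% and 93.7% of the pair's counts in PBS and 54.8%, 53.7% and 58.1% in OSM. It took 94.6%, 95.8% and 95.9% in EGF and 66.8%, 65.6% and 68.7% in EGF+OSM. In TGFB it took 93.5%, 93.2% and 92.6%, and in OSM+TGFB 49.9%, 50.3% and 54.6%. Without OSM the pair was mostly SERPINB3, and with OSM its genes came closer to equal. The remaining groups had means of 91.2% ± 2.84 (T0), 85.8% ± 4.37 (EGF+TGFB) and 59.5% ± 4.15 (EGF+OSM+TGFB; SD, n = 3). The EGF+TGFB shares rest on the fewest reads: replicate 1 had 117 SERPINB3 and 23 SERPINB4 counts, a share with a 95% exact binomial interval of 76.4% to 89.3%, which covers counting error only. Across the 27 libraries, which share 9 groups, log2 CPM of the pair had a Pearson r of 0.961, given as description.

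**Figure D2:**
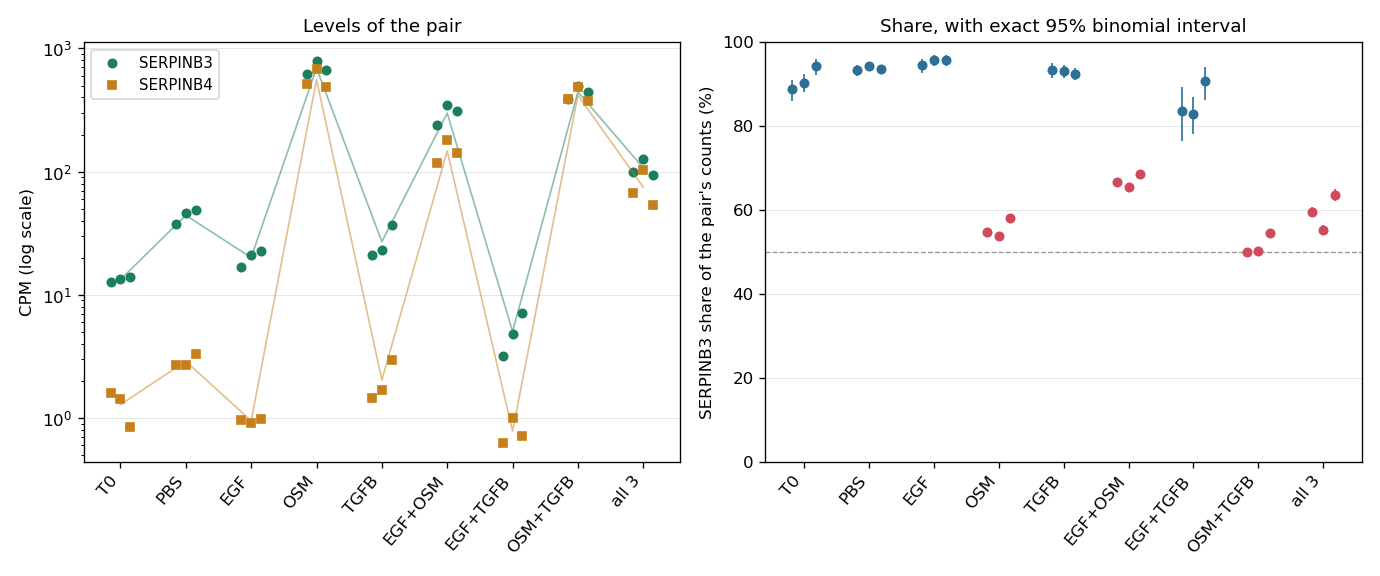
Left, CPM of SERPINB3 and SERPINB4 per library on a log axis; right, SERPINB3's share of the pair's counts per library in percent, with exact 95% binomial intervals and a dashed line at equal shares. The share lay at 82.9% or above in libraries without OSM and at 68.7% or below in those with OSM.

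SERPINB13, or headpin, inhibits cathepsins K and L and lies beside the pair at chr18:63586989-63604639 on the plus strand, but its counts followed EGF and not OSM. Its libraries had 31.6, 31.1 and 38.7 CPM in PBS against 9.90, 11.6 and 11.97 CPM in EGF. They had 34.6, 35.7 and 31.3 CPM in OSM against 10.6, 12.9 and 10.3 CPM in EGF+OSM. Each EGF group lay below its partner without overlap. In TGFB they had 17.6, 20.0 and 26.5 CPM against 2.80, 3.30 and 4.56 CPM in EGF+TGFB. In OSM+TGFB they had 18.7, 24.0 and 20.3 CPM against 2.71, 4.04 and 1.79 CPM in EGF+OSM+TGFB. EGF lowered SERPINB13 3.02-fold from PBS (log2 change -1.60 ± 0.17, edgeR adjusted p = 3.42e-08) and 2.998-fold from OSM (-1.58 ± 0.18, edgeR adjusted p = 9.68e-08). It lowered it 6.01-fold from TGFB (-2.61 ± 0.21, edgeR adjusted p = 1.56e-10) and 7.37-fold from OSM+TGFB (-2.90 ± 0.22, edgeR adjusted p = 4.08e-10). The EGF effect with TGFB minus that without was negative on the log2 scale (-1.01 ± 0.27, edgeR adjusted p = 0.00686).

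TGFB lowered SERPINB13 too, 1.58-fold from PBS (edgeR adjusted p = 0.00382), 1.61-fold from OSM (edgeR adjusted p = 0.00179), 3.14-fold from EGF (edgeR adjusted p = 5.63e-07) and 3.96-fold from EGF+OSM (edgeR adjusted p = 5.32e-08). For OSM no change passed the test. Its log2 difference was 0.02 when added to EGF (95% interval -0.37 to 0.40, edgeR adjusted p = 0.957), -0.03 when added to TGFB (-0.39 to 0.34, edgeR adjusted p = 0.914) and -0.31 when added to EGF+TGFB (-0.84 to 0.21, edgeR adjusted p = 0.401). The first of these had the opposite sign with upper-quartile scaling, and the sign of the first and of the second also changed when some libraries were left out.

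SERPINB1, an inhibitor of neutrophil elastase, proteinase 3 and cathepsin G at chr6:2832332-2841959, rose with OSM in every setting tested. Its libraries had 46.0, 51.8 and 40.3 CPM in PBS and 136, 171 and 145 CPM in OSM, 3.27-fold by ratio of means. They had 54.9, 54.6 and 53.8 CPM in EGF against 159.8, 167 and 147 CPM in EGF+OSM. In TGFB they had 45.3, 47.9 and 44.9 CPM against 97.6, 109 and 103 CPM in OSM+TGFB. The groups with OSM lay above all groups without it. With EGF+TGFB they had 70.4, 68.1 and 63.0 CPM against 127, 131 and 122 CPM in EGF+OSM+TGFB. OSM raised SERPINB1 2.90-fold over EGF (log2 change 1.54 ± 0.08, edgeR adjusted p = 6.3e-14), 2.24-fold over TGFB (1.16 ± 0.08, edgeR adjusted p = 4.02e-12) and 1.89-fold over EGF+TGFB (0.91 ± 0.08, edgeR adjusted p = 1.34e-09). In EGF-treated cells the OSM effect with TGFB minus that without was -0.62 ± 0.11 on the log2 scale (edgeR adjusted p = 0.000561).

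SERPINB6, known to inhibit cathepsin G and placed at chr6:2948159-2972165, moved within a narrow range, from 65.2 CPM in a PBS library to 134 CPM in an EGF+OSM+TGFB library. OSM raised it over TGFB by 0.47 ± 0.05 on the log2 scale (edgeR adjusted p = 2.19e-08), over EGF+TGFB by 0.39 ± 0.05 (edgeR adjusted p = 1.66e-06) and over EGF by 0.17 ± 0.05 (edgeR adjusted p = 0.0098). EGF raised it over PBS by 0.37 ± 0.05 (edgeR adjusted p = 5.76e-07) and over TGFB by 0.38 ± 0.05 (edgeR adjusted p = 3.48e-07). EGF added to OSM gave 0.01 ± 0.05 (edgeR adjusted p = 0.87), while added to OSM+TGFB it raised SERPINB6 by 0.31 ± 0.05 (edgeR adjusted p = 2.03e-05). TGFB raised it over EGF+OSM by 0.34 ± 0.05 (edgeR adjusted p = 2.25e-06) and over EGF by 0.13 ± 0.05 (edgeR adjusted p = 0.0399). The latter call was lost with DESeq2 (adjusted p = 0.0708), with upper-quartile scaling (edgeR adjusted p = 0.0932) and without EGF replicate 1 (0.0764), 2 (0.0530) or 3 (0.123) or EGF+TGFB replicate 2 (0.211). TGFB added to OSM gave 0.05 (edgeR adjusted p = 0.466) and TGFB against PBS 0.11 (edgeR adjusted p = 0.103), a difference that was called without PBS replicate 2 (0.0415).

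SERPINB8, an inhibitor of the proprotein convertase furin at chr18:63970029-64019779, was high with EGF. Its libraries had 41.9, 46.5 and 45.9 CPM in PBS against 75.7, 73.5 and 77.4 CPM in EGF. They had 34.1, 40.6 and 40.0 CPM in TGFB against 82.1, 81.0 and 79.4 CPM in EGF+TGFB. In OSM they had 58.7, 61.8 and 73.3 CPM against 88.9, 91.9 and 95.7 CPM in EGF+OSM. In each pair the group with EGF was the higher and did not overlap its partner. EGF raised SERPINB8 1.69-fold over PBS (edgeR adjusted p = 7.27e-10), 2.11-fold over TGFB (edgeR adjusted p = 1.51e-12) and by 0.51 ± 0.07 on the log2 scale over OSM (edgeR adjusted p = 8.56e-07). OSM raised it 1.63-fold over TGFB (edgeR adjusted p = 8.57e-09) and by 0.29 ± 0.07 over EGF (edgeR adjusted p = 0.00234). Over EGF+TGFB, OSM gave -0.06 ± 0.07 (95% interval -0.21 to 0.10, edgeR adjusted p = 0.633). In TGFB-treated cells the OSM effect with EGF minus that without was -0.76 ± 0.10 (edgeR adjusted p = 2.21e-06). TGFB against PBS gave -0.23 ± 0.07 (edgeR adjusted p = 0.0168), lost without PBS replicate 2 (0.0729), PBS replicate 3 (0.0601) or TGFB replicate 1 (0.143).

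SERPINB9, the granzyme B inhibitor at chr6:2887270-2903309, was near the detection limit with 1 to 9 counts per library (0.0261 to 0.177 CPM). It failed the filter on low counts, and no comparison of it was made.

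SERPINB2, or plasminogen activator inhibitor 2, inhibits urokinase and lies at chr18:63871692-63903888. It was highest in PBS and was lower in every ligand group. Its libraries had 59.1, 63.1 and 56.3 CPM in PBS, 25.1, 27.3 and 26.97 CPM in EGF and 12.01, 16.1 and 10.1 CPM in OSM. They had 34.8, 40.6 and 40.3 CPM in TGFB, 10.3, 14.0 and 9.73 CPM in EGF+OSM and 9.32, 11.4 and 14.0 CPM in EGF+TGFB. OSM+TGFB had 5.36, 7.15 and 6.62 CPM and EGF+OSM+TGFB 4.67, 5.12 and 5.08 CPM. The PBS libraries overlapped no other group, and the groups with more than 1 ligand were among the lowest. OSM lowered SERPINB2 6.05-fold from TGFB (log2 change -2.60 ± 0.16, edgeR adjusted p = 1.99e-12) and 2.33-fold from EGF (-1.22 ± 0.15, edgeR adjusted p = 6.61e-07). From EGF+TGFB it also lowered it (-1.22 ± 0.17, edgeR adjusted p = 8e-06). In TGFB-treated cells the OSM effect with EGF minus that without was 1.38 ± 0.23 (edgeR adjusted p = 6.92e-05).

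EGF lowered SERPINB2 2.25-fold from PBS (edgeR adjusted p = 6.83e-08) and 3.34-fold from TGFB (edgeR adjusted p = 3.51e-10). With OSM present the EGF differences did not pass: -0.17 on the log2 scale from OSM (95% interval -0.49 to 0.15, edgeR adjusted p = 0.354) and -0.37 ± 0.18 from OSM+TGFB (edgeR adjusted p = 0.0969). DESeq2 called the latter (-0.36, adjusted p = 0.0481). TGFB lowered SERPINB2 from PBS 1.54-fold (edgeR adjusted p = 0.000795), from EGF 2.29-fold (edgeR adjusted p = 3.6e-07), from OSM (log2 change -1.01 ± 0.16, edgeR adjusted p = 1.78e-05) and from EGF+OSM 2.29-fold (edgeR adjusted p = 1.79e-06). PBS was 1.62-fold above T0 (edgeR adjusted p = 0.000303).

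SERPINB5, or maspin, has a loop that does not inhibit proteases and is known from mammary myoepithelial cells. At chr18:63476958-63505085 on the plus strand, it was highest with TGFB alone. Its libraries had 1069.6, 1072 and 1039 CPM in PBS against 1992, 2027 and 2072 CPM in TGFB. They had 886, 859 and 968 CPM in OSM against 1258, 1208 and 1269 CPM in OSM+TGFB. In EGF+OSM they had 703, 718 and 658 CPM against 1234, 1189 and 1106 CPM in EGF+OSM+TGFB. EGF and EGF+TGFB followed the same order, with 1207 ± 40.0 and 1424 ± 89.6 CPM. Every TGFB group lay above its partner without overlap. TGFB raised SERPINB5 1.91-fold over PBS (log2 change 0.94 ± 0.05, edgeR adjusted p = 2.25e-13), 1.70-fold over EGF+OSM (0.76 ± 0.05, edgeR adjusted p = 3.6e-12), by 0.46 ± 0.05 over OSM (edgeR adjusted p = 4.95e-08) and by 0.24 ± 0.05 over EGF (edgeR adjusted p = 0.000351).

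OSM lowered SERPINB5 1.74-fold from EGF (edgeR adjusted p = 4.65e-12), 1.63-fold from TGFB (edgeR adjusted p = 1.32e-11) and, by the smallest margin, from EGF+TGFB (-0.28 ± 0.05, edgeR adjusted p = 0.000203). The direction of the EGF difference depended on the other ligands. EGF raised SERPINB5 over PBS by 0.19 ± 0.05 on the log2 scale (edgeR adjusted p = 0.00232) and lowered it from TGFB (-0.51 ± 0.05, edgeR adjusted p = 2.57e-09) and from OSM (-0.38 ± 0.05, edgeR adjusted p = 5.79e-07). Added to OSM+TGFB it gave -0.08 ± 0.05 (edgeR adjusted p = 0.195), and the groups overlapped. The EGF effect with TGFB minus that without was -0.70 ± 0.07 (edgeR adjusted p = 1.79e-07).

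SERPINB7, or megsin, is known from keratinocytes, where its loss causes a palmoplantar keratosis, and lies at chr18:63752935-63805376. It was lower in the groups given OSM than in the others. Its libraries had 5.36, 5.99 and 5.37 CPM in EGF against 1.49, 1.68 and 1.19 CPM in EGF+OSM. They had 9.66, 9.77 and 12.01 CPM in TGFB against 1.91, 2.56 and 1.60 CPM in OSM+TGFB. In EGF+TGFB they had 4.45, 4.48 and 4.73 CPM against 1.296, 2.13 and 0.846 CPM in EGF+OSM+TGFB. PBS had 7.01 ± 0.635 and OSM 2.01 ± 0.657 CPM. Libraries with and without OSM did not overlap. OSM lowered SERPINB7 3.84-fold from EGF (log2 change -1.94 ± 0.23, edgeR adjusted p = 1.86e-07), 5.19-fold from TGFB (-2.37 ± 0.22, edgeR adjusted p = 9.25e-10) and 3.20-fold from EGF+TGFB (-1.69 ± 0.24, edgeR adjusted p = 4.05e-06). EGF lowered it 2.30-fold from TGFB (edgeR adjusted p = 8.7e-06), while EGF against PBS gave -0.33 ± 0.20 (95% interval -0.75 to 0.08, edgeR adjusted p = 0.134). EGF added to OSM gave -0.48 ± 0.24 (edgeR adjusted p = 0.0927), called without OSM replicate 3 (0.0202). Added to OSM+TGFB, EGF gave -0.53 ± 0.25 (edgeR adjusted p = 0.0864), called without OSM+TGFB replicate 3 (0.0449) or EGF+OSM+TGFB replicate 2 (0.00607). TGFB against PBS gave 1.496-fold (edgeR adjusted p = 0.0212), lost without PBS replicate 1 (0.0768), PBS replicate 3 (0.0607) or TGFB replicate 3 (0.102). With OSM present TGFB left no difference past the test (-0.00, 95% interval -0.50 to 0.50, edgeR adjusted p = 0.994).

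Ordered by group mean, each gene ranked the 9 groups differently, and neighbours in an order did not always separate. SERPINB3 ran from OSM through OSM+TGFB, EGF+OSM, EGF+OSM+TGFB, PBS, TGFB, EGF and T0 to EGF+TGFB, and of neighbours only TGFB and EGF overlapped. SERPINB4 began with the same 6 groups and ended with T0, EGF and EGF+TGFB. Its libraries overlapped between OSM and OSM+TGFB and between each pair of neighbours from PBS down. SERPINB1 ran from EGF+OSM, OSM, EGF+OSM+TGFB and OSM+TGFB to EGF+TGFB, EGF, T0 (49.0 ± 3.09 CPM), PBS and TGFB, with overlap at EGF+OSM and OSM and among the last 3. SERPINB2 ran from PBS through TGFB, T0 (36.7 ± 2.73 CPM), EGF, OSM, EGF+TGFB, EGF+OSM and OSM+TGFB to EGF+OSM+TGFB, with overlap at TGFB and T0 and among OSM, EGF+TGFB and EGF+OSM. SERPINB5 ran from TGFB through EGF+TGFB, OSM+TGFB, EGF, EGF+OSM+TGFB, PBS, T0 (1055 ± 22.5 CPM) and OSM to EGF+OSM. Its libraries overlapped among OSM+TGFB, EGF and EGF+OSM+TGFB, and between PBS and T0. SERPINB6 was highest in EGF+OSM+TGFB (129.8 ± 4.15 CPM) and lowest in PBS (70.3 ± 4.62), SERPINB7 highest in TGFB (10.5 ± 1.33) and lowest in EGF+OSM+TGFB (1.42 ± 0.649), and SERPINB8 highest in EGF+OSM (92.2 ± 3.43) and lowest in TGFB (38.2 ± 3.59). SERPINB13 was highest in OSM and PBS, which overlapped, and lowest in EGF+OSM+TGFB (2.85 ± 1.13 CPM). T0 had 81.0 ± 2.95 CPM of SERPINB6, 6.43 ± 1.06 of SERPINB7, 43.2 ± 1.37 of SERPINB8 and 20.1 ± 2.75 of SERPINB13.

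Put together by ligand, OSM gave changes in opposite directions (plot of log2 changes). The largest were those of SERPINB4, whose rise with OSM was known when the set was drawn up, and of its paralog SERPINB3. The ligands are therefore not ranked by the spread of their changes. When OSM was added to EGF, 5 of the 9 tested genes rose and 3 fell, against 17.8% and 17.1% of all genes. SERPINB1, SERPINB3, SERPINB4, SERPINB6 and SERPINB8 rose, and SERPINB2, SERPINB5 and SERPINB7 fell. The addition to TGFB gave 5 and 3 of these same names, against 30.1% and 26.4% of all genes. The addition to EGF+TGFB gave 4 that rose and 3 that fell, against 13.6% and 12.8%, with SERPINB8 not called. The median log2 change over the tested genes was 0.17, 0.47 and -0.06 in these comparisons, beside 0.02, 0.01 and 0.00 over all genes. For OSM alone against PBS the values, not tested, were 3.97 for SERPINB3, 7.59 for SERPINB4, 1.71 for SERPINB1, 0.53 for SERPINB6 and SERPINB8, 0.00 for SERPINB13, -0.23 for SERPINB5, -1.79 for SERPINB7 and -2.22 for SERPINB2.

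EGF against PBS raised 4 genes and lowered 4, against 34.9% and 38.6% of all genes. SERPINB1, SERPINB5, SERPINB6 and SERPINB8 rose and SERPINB2, SERPINB3, SERPINB4 and SERPINB13 fell. The rise of SERPINB1 was 0.24 ± 0.08 on the log2 scale (edgeR adjusted p = 0.00926) and was lost without PBS replicate 3 (edgeR adjusted p = 0.0930). SERPINB1 also rose when EGF was added to TGFB (0.55 ± 0.08, edgeR adjusted p = 1.37e-06) and to OSM+TGFB (0.30 ± 0.08, edgeR adjusted p = 0.00237). Both of these calls were kept in all 32 alternatives. For EGF added to OSM its difference was 0.07 ± 0.08 (edgeR adjusted p = 0.478). Added to OSM, EGF raised 1 gene, SERPINB8, and lowered 4, against 29.9% and 31.8%. Added to TGFB it raised 3 and lowered 6, against 33.9% and 35.5%. Added to OSM+TGFB it raised 3 and lowered 3, against 26.3% and 25.9%. The medians over the tested genes were -0.33, -0.38, -1.20 and -0.37 in the 4 settings, beside -0.07, -0.03, -0.03 and 0.00 over all genes.

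TGFB against PBS raised 2 genes, SERPINB5 and SERPINB7, and lowered 4, against 19.9% and 15.8% of all genes. The count fell to 3 in all without PBS replicate 3. Added to EGF, TGFB raised 3 and lowered 3, against 27% and 27.7%. Added to OSM it raised 1, SERPINB5, and lowered 4, against 26.1% and 25.6%, and added to EGF+OSM it raised 2 and lowered 6, against 31.6% and 29.5%. SERPINB1 fell with TGFB where OSM was present, by 0.55 ± 0.08 on the log2 scale from OSM (edgeR adjusted p = 1.83e-06) and by 0.32 ± 0.08 from EGF+OSM (edgeR adjusted p = 0.000956). In EGF-treated cells without OSM it rose by 0.31 ± 0.08 (edgeR adjusted p = 0.00201). Between T0 and PBS, 4 genes rose (SERPINB2, SERPINB3, SERPINB4 and SERPINB13) and 1 fell (SERPINB6), against 16.2% and 18.9% of all genes. Several of these comparisons share libraries, PBS above all, and so are not independent of each other or of OSM against PBS. Those that set EGF or TGFB against OSM alone use the OSM libraries in the same way.

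**Figure D3:**
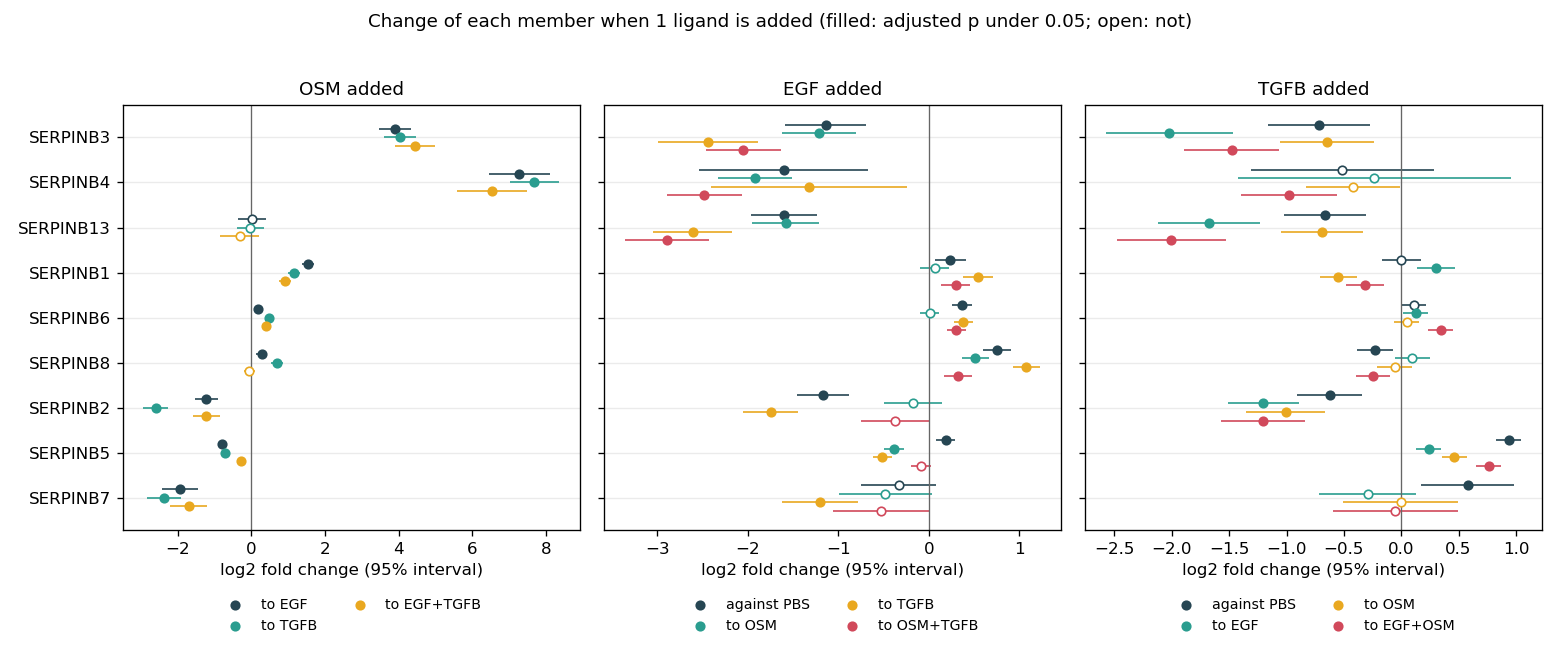
Log2 change with 95% interval of each tested gene for OSM, EGF or TGFB added in each setting; filled points passed the edgeR test and open points did not. SERPINB4 lies farthest to the right for OSM, between 6.53 and 7.69 in the tested settings, and SERPINB13 for OSM straddles 0.

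Differences between settings were tested as contrasts of contrasts. The OSM effect in TGFB-treated cells with EGF minus that without EGF was higher for 2 genes, SERPINB2 and SERPINB5 (0.43 ± 0.07, edgeR adjusted p = 4.8e-05), and lower for 1, SERPINB8, against 14.9% and 20.2% of all genes. For SERPINB3 it was 0.39 ± 0.33 (95% interval -0.30 to 1.09, edgeR adjusted p = 0.386). For SERPINB4 it was -1.16 ± 0.55 (-2.32 to 0.00, edgeR adjusted p = 0.129), though it was called by DESeq2 (-1.13, adjusted p = 0.0156) and, by edgeR, without EGF+OSM+TGFB replicate 2 (adjusted p = 0.0289). The OSM effect in EGF-treated cells with TGFB minus that without was higher for 1 gene, SERPINB5 (0.53 ± 0.07, edgeR adjusted p = 3.23e-05), and lower for 2, against 5.70% and 3.85%. Those were SERPINB1, given above, and SERPINB8 (-0.34 ± 0.10, edgeR adjusted p = 0.0304), the latter lost without EGF replicate 1 or 2, EGF+OSM replicate 3, EGF+TGFB replicate 1 or EGF+OSM+TGFB replicate 1 or 2 (edgeR adjusted p up to 0.0890).

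The EGF effect with TGFB minus that without, OSM absent, was the contrast in which most of the genes moved. It was higher for 2 and lower for 5, against 13.3% and 16.5% of all genes. SERPINB3, SERPINB5 and SERPINB13, given above, SERPINB2 (-0.58 ± 0.20, edgeR adjusted p = 0.0316) and SERPINB7 (-0.87 ± 0.28, edgeR adjusted p = 0.0202) were lower. SERPINB1 (0.31 ± 0.11, edgeR adjusted p = 0.0432) and SERPINB8 (0.33 ± 0.10, edgeR adjusted p = 0.0172) were higher. The SERPINB1 call was lost in 12 of 27 fits that left out a library (edgeR adjusted p up to 0.169) and with rows as deposited (0.0508). Those libraries were replicates 1 and 2 of PBS and of EGF+TGFB, 1 and 3 of TGFB, every EGF replicate, replicate 1 of EGF+OSM and of EGF+OSM+TGFB, and replicate 3 of OSM+TGFB. The SERPINB2 call was lost in 8 of 27 (edgeR adjusted p up to 0.107) and with no filter on low counts (0.0968), the libraries being replicates 1 and 3 of PBS, 2 and 3 of EGF and of TGFB, and 1 and 2 of EGF+TGFB. The SERPINB7 call was lost without TGFB replicate 3 (edgeR adjusted p = 0.0593) and the SERPINB8 call without TGFB replicate 1 (0.0707). Without TGFB replicate 3 the count fell from 7 to 4.

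These changes altered which serpins made up the family's transcripts. Summed per kilobase, the family stood at 568 ± 12.1 CPM per kb in PBS, 922 ± 23.5 in TGFB and 1258 ± 107 in OSM. SERPINB5 made up 72.2% ± 0.823 of the sum in PBS, 85.2% ± 0.507 in TGFB and 28.0% ± 3.43 in OSM. In OSM, SERPINB3 took 32.2% ± 1.14 and SERPINB4 25.8% ± 2.71, against 4.56% ± 0.643 and 0.298% ± 0.0420 in PBS. The other groups with OSM lay between these, with SERPINB5 at 38.0% in EGF+OSM, 42.4% in OSM+TGFB and 61.6% in EGF+OSM+TGFB. Their sums were 708 ± 58.8, 1137 ± 52.4 and 739 ± 45.8 CPM per kb.

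**Figure D4:**
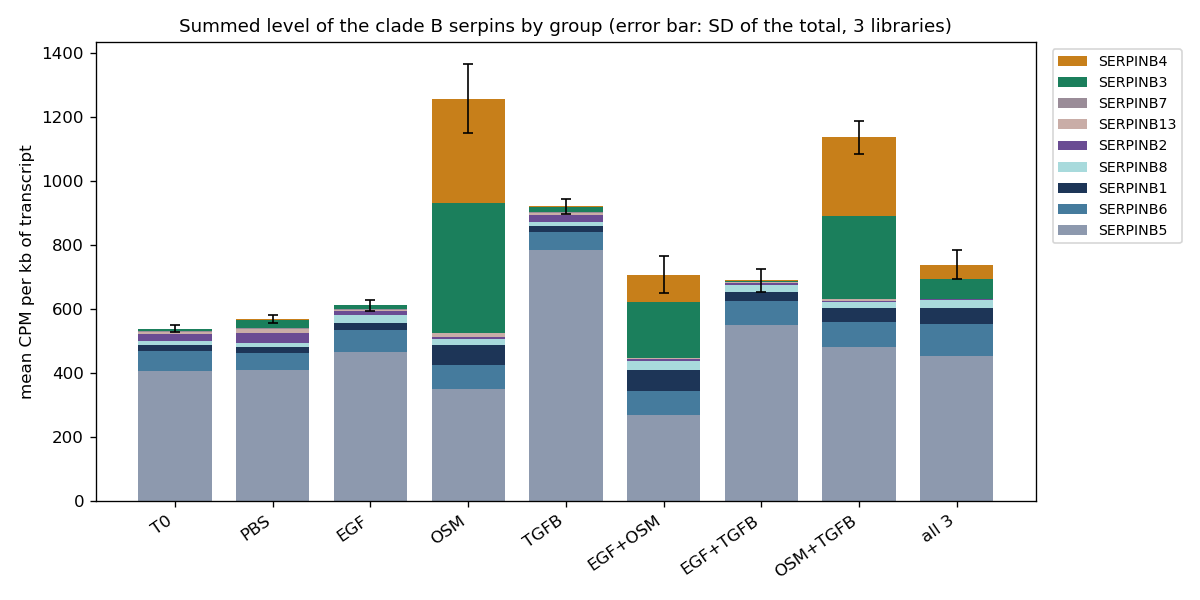
Mean CPM per kilobase of the tested genes, stacked by group, with the SD of the summed level over 3 libraries as error bar; SERPINB9 is too low to draw. SERPINB5 fills most of each bar without OSM, and SERPINB3 and SERPINB4 together exceed it in OSM. In OSM+TGFB the mean of the pair is slightly above that of SERPINB5, but the pair does not exceed it in every library.

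For the members whose group means spanned at least 2 on the log2 scale, the genes outside clade B with the most similar profile were sought among 9240 tested genes. Likeness was Pearson's r of log2 CPM over 27 libraries, which share 9 groups, and is a description. SERPINB3 was most like S100A9 (r = 0.993), S100A8 (0.988) and PLA2G4E (0.970). SERPINB4 was most like FGL1 (0.989), OLFM4 (0.986) and CASP14 (0.978). SERPINB2 was most like GGT6 (0.979), HSD11B2 (0.974) and JADE2 (0.974). The nearest genes to SERPINB7 were SPRR2D (0.972), AOC1 (0.966) and P3H2 (0.965), and those to SERPINB13 were CITED2 (0.949), DEPTOR (0.945) and ALDH3B2 (0.943). Within the family SERPINB2 ran opposite to SERPINB6 (r = -0.926) and SERPINB1 opposite to SERPINB7 (-0.912).

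Known protease targets of the family were counted beside it. Of 13, 8 were tested, and ELANE, PRTN3, CTSG, CMA1 and GZMB stayed at or under 0.354 CPM. OSM added to EGF raised 3 and lowered 3 (17.8% and 17.1% of all genes), with a median log2 change of -0.12 beside 0.02 over all genes. Cathepsin L (CTSL) rose from 88.3 ± 2.12 CPM in EGF to 292 ± 18.5 in EGF+OSM (log2 change 1.73, edgeR adjusted p = 1.5e-18) while cathepsin V (CTSV) fell from 80.5 ± 10.5 to 20.4 ± 1.65 CPM (-1.98, edgeR adjusted p = 1.6e-07). TGFB against PBS raised 3 of the 8, against 19.9% of all genes. Urokinase (PLAU), the target of SERPINB2, rose from 76.0 ± 5.43 CPM in PBS to 221 ± 8.26 in TGFB (log2 change 1.54, edgeR adjusted p = 4.3e-09) and to 209 ± 35.7 in EGF (1.46, edgeR adjusted p = 1.5e-09). It reached 906 ± 109 CPM in EGF+TGFB. FURIN, the target of SERPINB8, rose from 169 ± 6.85 CPM in PBS to 263 ± 2.12 in TGFB (log2 change 0.63, edgeR adjusted p = 3.2e-10). By the same test it also rose from PBS to EGF (260 ± 9.55 CPM) and from TGFB to EGF+TGFB (437 ± 34.6 CPM). It fell from EGF to EGF+OSM (223 ± 10.3 CPM).

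Serpins of other clades also moved with the ligands. Of 13 listed, 10 were tested, and OSM added to EGF raised 6 and lowered 2 (17.8% and 17.1% of all genes), with a median log2 change of 1.15 beside 0.02 over all genes. SERPINA1, alpha-1-antitrypsin, rose from 25.1 ± 0.705 CPM in EGF to 389 ± 26.2 in EGF+OSM (log2 change 3.95, edgeR adjusted p = 1.8e-22). SERPINA3, alpha-1-antichymotrypsin, rose from 73.0 ± 17.8 to 445 ± 131 CPM (2.61, edgeR adjusted p = 4.2e-06).

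Most genes of a squamous differentiation list fell where SERPINB3 and SERPINB4 rose with OSM. Of its 11 tested genes 9 fell when OSM was added to EGF, against 17.1% of all genes, with a median log2 change of -3.66 over the list. When it was added to TGFB, 10 fell, against 26.4%, with a median of -4.62. When it was added to EGF+TGFB, 7 fell and 2 rose, against 12.8% and 13.6%, with a median of -1.87. SPRR1B, a cornified envelope protein, fell from 233 ± 26.1 CPM in EGF to 12.9 ± 2.20 in EGF+OSM (-4.17, edgeR adjusted p = 6e-12), and KRT10, a suprabasal keratin, from 212 ± 47.3 to 20.5 ± 0.711 CPM (-3.37, edgeR adjusted p = 1.2e-08). EGF against PBS lowered all 11, against 38.6% of all genes, and 9 were higher in PBS than in T0 by the same test, against 16.2%.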

How the data were processed

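Polyadenylated RNA was measured in 27 libraries made with a stranded kit, per the labels' protocols. The authors deposited 1 table of estimated counts per gene, as whole numbers. Per the submitters' processing notes the tools were Trim Galore 0.4.3, cutadapt 1.10, FastQC 0.11.5, kallisto 0.46.2 and R 3.5.0, and the builds named there are GRCh38.p5 and hg38. The annotation version, the rounding of the estimates and any use of strand are not given in the sources used here. Gene coordinates come from GENCODE v44 (GRCh38) by way of the Ensembl identifiers.

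Libraries were assigned to groups by their labels. Rows sharing a symbol were summed (40487 rows gave 36536 genes, and rows without a symbol kept their identifier). Genes were filtered with filterByExpr by group, library sizes received TMM factors of 0.867 to 1.12, and 1 quasi-likelihood model with a mean per group was fitted in edgeR 4.0.16 (R 4.3.3) to all 27 libraries, with 18 residual degrees of freedom. The biological coefficient of variation was 7.83%. P-values were adjusted over 15575 genes, and 15 comparisons were tested. At 30.1 to 52.9 M counts per library, the spread between replicates sets the precision of most values. Each library counted as 1 sample. Replicates of a group differed by more than sampling noise (chi-square per degree of freedom 6.87 to 34.1), which does not show that they came from separate cultures. Intervals of shares cover counting error only. The genes and lists were chosen with earlier results of these data known. Genes given with values outside the set were at most 4 per list of related genes, from those with the highest mean CPM, and the 3 with the most similar profile for each member whose group means spanned at least 2 on the log2 scale. Cell type markers and the protease targets that were not tested are named besides. A gene that this rule names is not reported here. DESeq2 1.42.0, upper-quartile scaling, no filter, rows as deposited, a replicate block, a 2-fold limit and leaving out each library in turn were tried as alternatives, 33 in all. The test was tried on simulated counts.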

Additional observations from a re-analysis of the deposited data

Results flagged for a closer look

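Each result here is a difference in a ligand's effect between settings that passed the edgeR quasi-likelihood test of the difference itself, on the log2 scale. In TGFB-treated cells, the OSM effect with EGF minus that without was 1.38 for SERPINB2, 0.43 for SERPINB5 and -0.76 for SERPINB8. The SERPINB2 value reflects a fall of 2.60 without EGF and of 1.22 with it. In EGF-treated cells, the OSM effect with TGFB minus that without was -0.62 for SERPINB1, 0.53 for SERPINB5 and -0.34 for SERPINB8. This last call was lost when any of several libraries was left out, as given above.

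Where OSM was absent, the EGF effect with TGFB minus that without was 0.31 for SERPINB1, -0.58 for SERPINB2, -1.31 for SERPINB3, -0.70 for SERPINB5, -0.87 for SERPINB7, 0.33 for SERPINB8 and -1.01 for SERPINB13. Of these, the calls of SERPINB1, SERPINB2, SERPINB7 and SERPINB8 were lost in at least 1 alternative, as given above. SERPINB5 changed direction, from higher with EGF than in PBS to lower in EGF+TGFB than in TGFB. No group had more than 3 libraries, so no search for single libraries far from their group was made.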

How the results depend on the processing

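Of 125 fold changes followed, 82 kept their call and direction in all 32 alternatives that give a fold change, 12 lost their call in at least 1 and 9 gained one in at least 1. The sign of a further 10, none of them called, was not fixed and they are not counted. Values given as reversed were never called: SERPINB13 for OSM added to EGF was -0.0013 with upper-quartile scaling and -0.094 to 0.078 leaving out a library. SERPINB13 for OSM added to TGFB was -0.15 to 0.16, and SERPINB7 for TGFB added to OSM was 0.0029 with rows as deposited, 0.0039 with the replicate block, 0.0017 with DESeq2 and -0.21 to 0.29 leaving out a library. Requiring a change past 2-fold lowered the number of the 9 genes called from 8 to 5 for OSM added to EGF and to TGFB, and from 7 to 4 for OSM added to EGF+TGFB. It lowered EGF against PBS from 8 to 4, EGF added to OSM from 5 to 3 and EGF added to OSM+TGFB from 6 to 3. TGFB against PBS went from 6 to 0, TGFB added to EGF from 6 to 3, to OSM from 5 to 1 and to EGF+OSM from 8 to 3. PBS against T0 went from 5 to 2, and the differences between settings from 3 to 1, from 3 to 0 and from 7 to 2, in the order reported. Leaving out a library gave 3 to 6 called genes for TGFB against PBS and 4 to 7 for the EGF effect with TGFB minus without. Same-numbered libraries of different groups had deviations from their group means with a mean correlation of 0.0626 (-0.0265 to 0.178). For different-numbered libraries it was -0.0313 (-0.164 to 0.125). The correlation was over 0.1 in 23 of 108 same-numbered pairs and in 1 of 216 different-numbered pairs. Of 27 libraries, 26 were closest to their own number, so libraries of the same number shared part of their deviation. The main fit had no term for the number, so its p-values leave this shared part in the spread. With the replicate block, SERPINB4 for TGFB added to OSM was called (-0.41, edgeR adjusted p = 0.0121), as were SERPINB1 (-0.25, 0.0156) and SERPINB6 (0.22, 0.0212) in the differences in the OSM effect. Calls over all genes for the OSM effect with TGFB minus without went from 1487 to 2482 with the block. Over all genes, the 2-fold limit lowered calls from between 1487 and 11446 to between 324 and 4287. The lower counts of serpins at this limit are therefore not particular to them. Whether they dropped more or less than all genes within a comparison was not tested. SERPINB9 and the low SERPINB4 counts without OSM are where depth limits the values most, and the split of reads between SERPINB3 and SERPINB4 cannot be checked from the table.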
